A study of Mus musculus with 6 samples.

Results

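IL-4 polarization of mouse bone marrow-derived macrophages (BMDMs) in the absence of drug was described by comparing the library of BMDMs given IL-4 (M2_ctrl) with the library of unpolarized BMDMs (M0_ctrl), which are 2 of the 6 libraries of the series. Of the 54446 genes in the count table, the 13830 with at least 10 counts in M0_ctrl or M2_ctrl were taken. The BMDMs came from male BALB/c mice aged 6 to 8 weeks and were grown for 7 days in medium with 10% fetal bovine serum and 20% L929-conditioned medium, which supplies the macrophage growth factor CSF-1. M2_ctrl received IL4 at 20 ng/mL for 24 hours, M0_ctrl received no polarizing cytokine, and both are control cells that, by the treatment labels, received DMSO, the solvent of the drug. The other 4 libraries are M1 cells given IFN-γ and LPS (M1_ctrl), and M0, M1 and M2 cells given the kinase inhibitor regorafenib at 1 µM. The paper's methods give no time in culture for M0_ctrl after the 7 days. The sources do not state whether the libraries came from separate cultures or animals.

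IL-4 acts on macrophages through a receptor that pairs Il4ra with the common γ chain (Il2rg) or with Il13ra1. The receptor activates Jak kinases, which phosphorylate the transcription factor Stat6, and Stat6 dimers bind a palindrome in which TTC and GAA are separated by a spacer of a few bases. The resulting state is known as alternative, or M2, activation and is known for the mannose receptor and for chitinase-like and resistin-like secreted proteins, with feedback through Socs1 and Cish. It is commonly set against the M1 state driven by IFN-γ and LPS.

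The M0_ctrl library held 27586063 counts and the M2_ctrl library 34898342, and the 10 most abundant genes took 9.85% and 9.76% of them. Levels are CPM, the counts per 1000000 counts of the library after TMM scaling over the 6 libraries. A gene was called higher or lower when its level differed at least 2-fold and the 95% counting interval of its log2 ratio (M2_ctrl over M0_ctrl) did not include 0. With 1 library per condition, no difference has a replicate check, the intervals cover counting error only, and no p-value is given. In such bulk libraries, fewer cells that express a gene and less RNA of it per cell cannot be told apart.

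Relative to M0_ctrl, 526 genes were higher in M2_ctrl (3.8% of the genes) and 966 were lower (6.98%). The median log2 ratio of all genes was 0.01, and 87.7% of the genes lay within 2-fold. At 4-fold or more, 211 genes were higher (1.53%) and 193 were lower (1.4%). At least 16-fold differences were seen for 33 higher genes and 10 lower genes. The genes that were called higher gained 29781 CPM together, and those called lower lost 17823 CPM. The counting interval lay above 0 for 29.7% of the genes and below 0 for 28.8%, since it is narrow for abundant genes. Where lists are set beside these shares, they were not matched to all genes for level. A further 208 genes had a ratio of 2-fold or more, but with an interval that included 0.

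**Figure D1:**
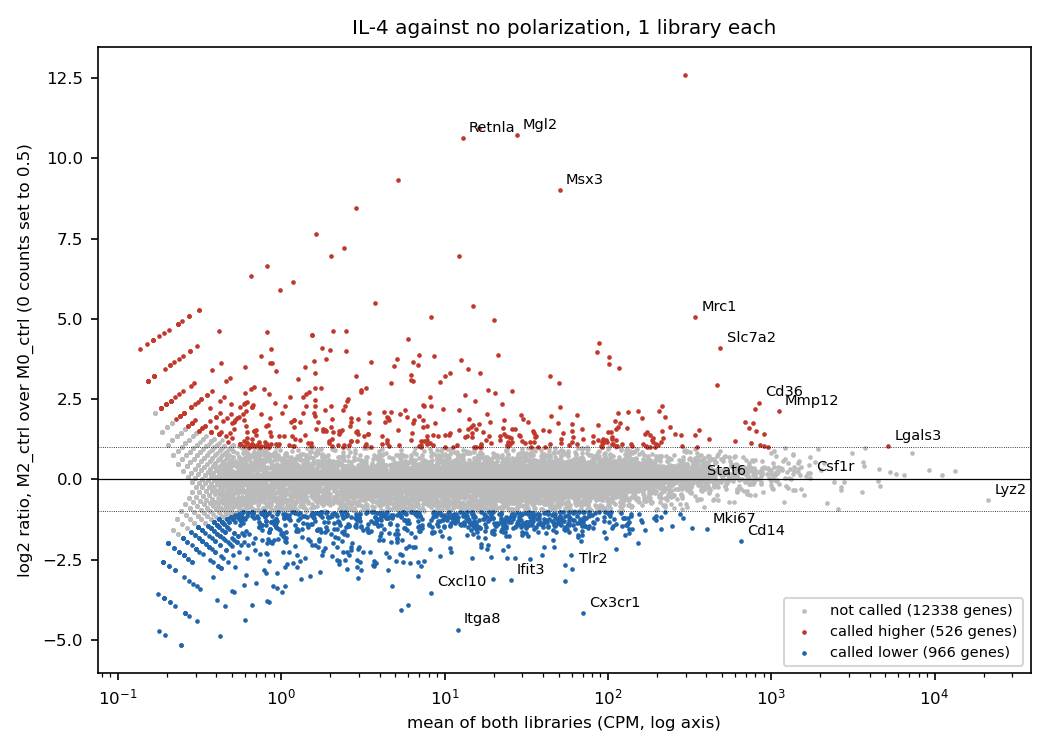
The log2 ratio of M2_ctrl over M0_ctrl (vertical axis) is plotted for each of the 13830 genes against its mean level in both libraries (horizontal axis, CPM on a log scale). The 526 genes called higher are red, the 966 called lower are blue, and dotted lines mark 2-fold. Mgl2 and Retnla stand above 10 on the log2 scale, and Itga8 and Cx3cr1 are the lowest of the genes named in the plot.

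The macrophage label was checked against 12 macrophage markers, and all of them reached 10 counts. Of these, 2 were higher, among them Adgre1, the surface protein F4/80, and Cd14 and Fcgr1 were lower, beside 3.8% and 6.98% of all genes, and the median log2 ratio was 0.16. Lyz2, which encodes lysozyme, had 797716 counts in M0_ctrl and 610104 in M2_ctrl, and Csf1r, the CSF-1 receptor, had 52356 and 64521 (log2 ratio 0.05). Among the markers of other cell types, the T cell genes Cd3e, Cd3d and Cd3g, the neutrophil genes Ly6g and Elane, the mast cell genes Cpa3 and Fcer1a, and the hemoglobin genes were at 0 in both libraries. With 0 counts, a level of up to 0.0977 CPM in M0_ctrl and 0.0822 CPM in M2_ctrl is possible. The summed level of the 12 neutrophil markers was 117 CPM in M0_ctrl and 108 CPM in M2_ctrl, most of it from Mpo, the myeloperoxidase of granulocytes and their progenitors, with 2479 and 3175 counts. The 12 dendritic cell markers summed to 110 and 107 CPM, mostly Irf8, which macrophages also express, with Flt3 at 0 and 1 count. The 10 stromal markers summed to 12.1 and 12.4 CPM, and the 14 T, NK and B cell markers to 189 and 316 CPM, of which Il7r, a cytokine receptor, held nearly all (5793 and 11550 counts). The 12 eosinophil, basophil and mast cell markers summed to 2.44 CPM in M0_ctrl and 9.34 CPM in M2_ctrl, from Ccr3 and Siglecf (16 and 80 counts), which were both higher, while the eosinophil granule genes Epx and Prg2 had 0 and at most 1 count. The 10 erythroid and megakaryocyte markers summed to 0.326 and 0.11 CPM. The part of other cell types in the differences was not tested.

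At the thresholds, Adgre1 was just inside the higher group with 19492 counts in M0_ctrl and 46339 in M2_ctrl (not called with total counts or the median of ratios as the scale), and Tpcn2 was just outside with 2483 and 5899. Mad2l1, a mitotic checkpoint gene, was just inside the lower group with 2731 and 1620 counts, and Ugt1a7c was just outside with 2555 and 1521. At the count minimum, 135 genes had a highest count of 10 and were kept, and 200 genes with a highest count of 9 were left out.

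The classic IL-4 marker genes had the highest median of all the gene lists. Of 32 matched markers, 28 had at least 10 counts, 23 were called higher and 1 was called lower, beside 3.8% and 6.98% of all genes, with a median log2 ratio of 3.65 against 0.01 for all genes. The 4 markers under the minimum were Ccl17, Alox15, F13a1 and Ucp1, with at most 4 counts in either library.

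Several genes for secreted proteins of the M2 state were not detected in M0_ctrl. Retnla, the resistin-like protein Fizz1 (chr16:48842551-48844461, plus strand), had 0 counts in M0_ctrl and 941 in M2_ctrl, and was at least 264-fold higher. Chil3, the chitinase-like protein Ym1, had 0 and 379 counts and was at least 106-fold higher. Rnase2a, a ribonuclease of the eosinophil-associated family, had 0 and 1181 counts and was at least 331-fold higher. All these bounds set the undetected library at 3 counts. Chil3 shares 4.93% of its 100-base words with Chil4, which had 1 and 71 counts (log2 ratio 5.90, interval 3.38 to 11.22).

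Promoters of 3 IL-4 markers that were called higher and hold the Stat6 motif (TTC, any 4 bases, then GAA) are shown, since this is the site that the IL-4 pathway is known to use. The windows are the 250 bases before the RefSeq start on GRCm38.p6, read on the gene's strand, and capitals mark each match. They are chr16:48842359-48842608 for Retnla, chr19:29410669-29410918 for Pdcd1lg2 and chr10:68723496-68723745 for Tmem26, all on the plus strand.
Retnla: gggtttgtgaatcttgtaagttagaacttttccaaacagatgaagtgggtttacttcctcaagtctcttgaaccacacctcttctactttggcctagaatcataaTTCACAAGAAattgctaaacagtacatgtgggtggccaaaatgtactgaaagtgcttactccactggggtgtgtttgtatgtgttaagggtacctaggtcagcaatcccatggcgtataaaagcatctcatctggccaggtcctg
Pdcd1lg2: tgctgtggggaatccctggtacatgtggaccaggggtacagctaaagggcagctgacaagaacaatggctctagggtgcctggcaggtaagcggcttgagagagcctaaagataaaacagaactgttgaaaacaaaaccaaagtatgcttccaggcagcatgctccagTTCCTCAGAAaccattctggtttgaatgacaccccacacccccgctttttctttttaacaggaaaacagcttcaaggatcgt
Tmem26: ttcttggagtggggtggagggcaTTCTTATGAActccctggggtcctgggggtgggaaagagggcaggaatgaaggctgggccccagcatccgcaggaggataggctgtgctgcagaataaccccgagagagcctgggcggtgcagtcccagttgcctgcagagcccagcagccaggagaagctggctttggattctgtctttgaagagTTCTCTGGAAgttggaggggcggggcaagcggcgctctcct
Retnla and Pdcd1lg2 held 1 match each, starting 145 and 82 bases before the RefSeq start, and Tmem26 held 2. The RefSeq start of Retnla lies inside the gene bounds given above, which are from Gencode. The motif reads the same on both strands. Of the 9857 genes with a RefSeq promoter, 5.72% held a match, against 8.78% of the genes called higher, 12.6% of those at least 4-fold higher and 5.60% of those called lower. Among the lists, 4 of the 17 IL-4 markers with a promoter that were called in either direction held it, and of these the 3 shown were called higher. It was also held by 4 of the 28 called interferon-stimulated genes, which were lower in M2_ctrl. A match describes the letters of the window and is not a bound site.

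Surface receptors formed the next group of markers. Mrc1, the mannose receptor CD206, had 614 counts in M0_ctrl and 24237 in M2_ctrl and was 33.2-fold higher. The galactose-binding lectins Mgl2 and Clec10a had 1 and 83 counts in M0_ctrl and 2017 and 1449 in M2_ctrl, with log2 ratios of 10.73 (interval 8.25 to 16.03) and 3.88 (3.56 to 4.21). They share part of their sequence (3.95% of the words of Mgl2). Clec7a, the β-glucan receptor Dectin-1, had 273 and 6133 counts (log2 ratio 4.24), and in all 6 of the 17 C-type lectin genes with enough counts were called higher, where 3.8% of all genes were higher and 6.98% lower. Lower C-type lectins were Clec4e (5636 and 1477 counts), Clec4n (290 and 79) and Clec5a (4964 and 2875, not called with upper quartile scaling), which are receptors that signal through ITAM-bearing partners. Flt1, the VEGF receptor 1, had 478 and 6879 counts (log2 ratio 3.60).

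In CPM per kilobase of exon, which allows genes to be compared, the elastase gene Mmp12 stood at 250.4 in M2_ctrl, Mrc1 at 104 and the cationic amino acid transporter gene Slc7a2 at 101. In M0_ctrl, Mmp12 already stood at 57.5 and the transglutaminase gene Tgm2 at 47.6, whereas Mrc1 was at 3.14. Tgm2 was not called, with 6742 and 10089 counts (log2 ratio 0.33). Ch25h (0.49), Myc (0.40) and Cd83 (-0.14) were also not called. The IL-1 receptor antagonist gene Il1rn was the marker that was lower, with 1227 and 694 counts (-1.07, interval -1.21 to -0.94).

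**Figure D2:**
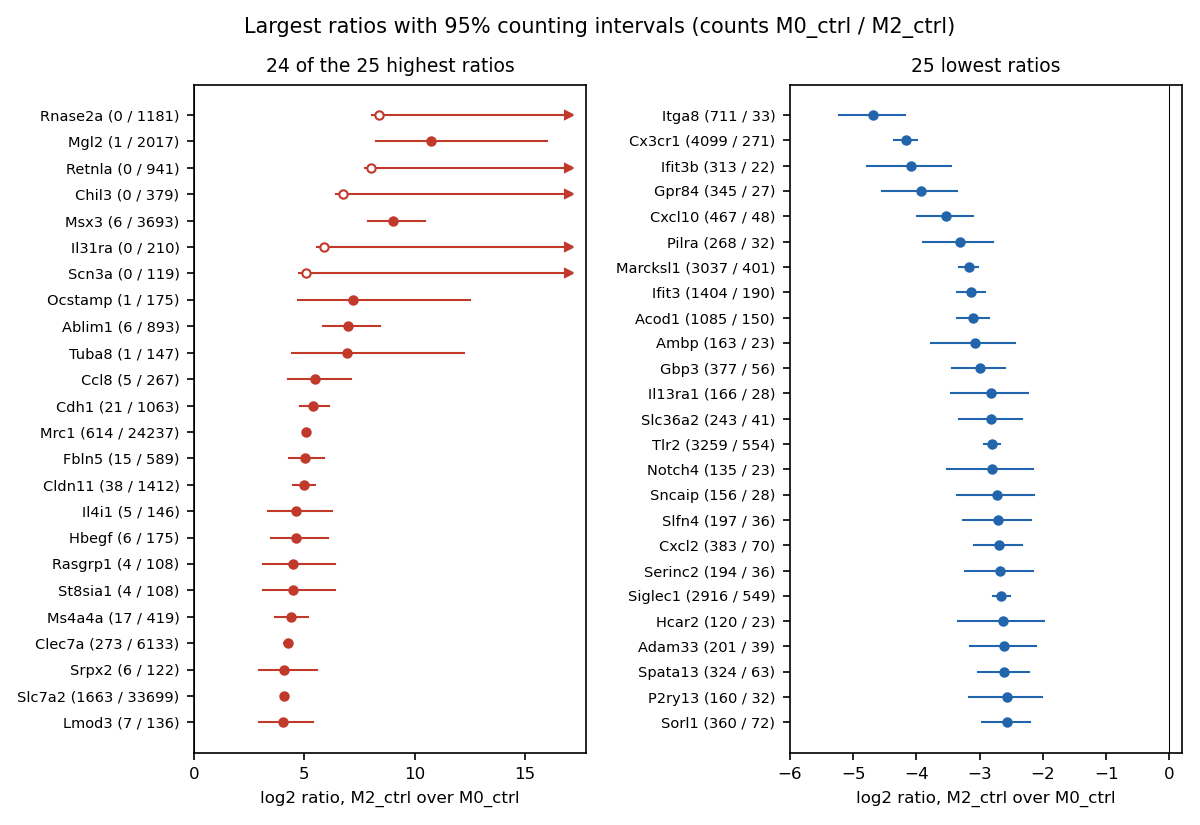
Genes among the 25 highest (left, red, 24 shown) and the 25 lowest (right, blue) log2 ratios of called genes that reached 100 counts in 1 of the libraries are plotted with 95% counting intervals, with the counts in M0_ctrl and M2_ctrl beside each name. Open circles with arrows mark the 5 genes with 0 counts in M0_ctrl, placed at their lower bound. The intervals of the abundant genes Mrc1 and Slc7a2 are narrow, while those of genes with 1 to 6 counts in M0_ctrl span several log2 units.

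Outside the marker list, the 25 highest ratios held genes of diverse function. Msx3, which encodes a homeobox protein known from the neural tube, had 6 counts in M0_ctrl and 3693 in M2_ctrl (log2 ratio 9.02, interval 7.89 to 10.46). Il31ra, a cytokine receptor subunit, and Scn3a, a neuronal sodium channel subunit, had 0 counts in M0_ctrl and 210 and 119 in M2_ctrl, and were at least 58.9-fold and 33.4-fold higher. The actin-binding protein gene Ablim1 had 6 and 893 counts (6.97), the tight junction gene Cldn11 had 38 and 1412 (4.97), and the matrix protein gene Fbln5 had 15 and 589 (5.05). Hbegf, a ligand of the EGF receptor, had 6 and 175 counts (4.62). Il4i1, an amino acid oxidase named for its induction by IL-4, had 5 and 146 counts (4.62), but 85.9% of its exonic bases are overlapped by exons of genes on the other strand, and how strand was counted is not stated. The same holds in part for Tuba8 (1 and 147 counts), with 16.3% of its bases overlapped. Other genes named here with such an overlap include Fosl1 (57.2%), Cxcl11 (41.7%), Ccnd1 (23.4%), Dusp5 (22.1%), Tgm2 (21.8%), Cxcl16 (18.3%), Csf1r (15.1%), Cebpd (15.0%) and Cd274 (14.1%). Further named genes have smaller overlaps that are not listed. For Il2rg, 30.5% of the exonic bases are shared with a gene on the same strand.

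Among the genes called higher, the largest gains in level were in genes that M0_ctrl already expressed. Lgals3, the galectin-3 gene, rose from 3417 to 7032 CPM (log2 ratio 1.04, and 0.95 with total counts as the scale, where it was not called). Mmp12 rose from 416 to 1812 CPM, the fatty acid transporter gene Cd36 from 271 to 1420 CPM, and the transferrin receptor gene Tfrc from 284 to 1304 CPM. Slc7a2 rose from 54.1 to 923 CPM, Igf1 from 352 to 1199 CPM, and Timp2, a metalloproteinase inhibitor, from 425 to 1196 CPM. Plek, the V-ATPase subunit gene Atp6v0a1 and the clathrin adaptor gene Ap2m1 completed the 10 largest gains of called genes, with log2 ratios of 1.41, 1.77 and 1.59, and 20.7% of the words of Ap2m1 recur in a pseudogene.

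Of 20 measured members of the IL-4 pathway itself, 4 were higher and 1 was lower, beside 3.8% and 6.98% of all genes, with a median log2 ratio of 0.08. Stat6 had 11636 counts in M0_ctrl and 13367 in M2_ctrl (log2 ratio -0.05), and the receptor chains Il4ra (941 and 689 counts, -0.70) and Il2rg (1300 and 1275, -0.28) were not called. Il13ra1, the chain of the type II receptor, was lower with 166 and 28 counts (-2.82, interval -3.45 to -2.23). The negative regulators Cish (16 and 241 counts, 3.66), Socs1 (63 and 615, 3.04) and Socs2 (3 and 24, 2.75, interval 1.03 to 5.13) were higher. The adaptor gene Irs2, which links the IL-4 receptor to PI3 kinase, was slightly above 2-fold (1.04, and 0.95 with total counts as the scale, where it was not called).

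Among 39 transcription factor genes of macrophages, 10 were higher and 2 were lower, against 3.8% and 6.98% of all genes, so the share of lower genes was near that of all genes. The median was 0.39. Irf4, a factor of alternative activation, had 55 counts in M0_ctrl and 855 in M2_ctrl (3.71), and Egr2 had 263 and 2912 (3.22). Klf4 had 1677 and 6702 counts (1.75), Cebpa 1744 and 6360 (1.62) and Bhlhe40 1524 and 6315 (1.80). Gata6, the factor of resident peritoneal macrophages, went from 1 to 85 counts (6.16, interval 3.64 to 11.48). The lower factors were Cebpd (-1.13) and Ets2 (-1.21), while the lineage factors Spi1 (0.27) and Irf8 (-0.07) were not called. Of 25 AP-1, CREB and immediate early genes, Atf3 (1.54), Fosl2 (1.27) and Dusp4 (1.16) were higher and Fosb, Dusp5, Fosl1 and Dusp1 were lower, the last not with upper quartile scaling.

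In arginine metabolism, 4 of the 23 genes were higher and 1 was lower, against 3.8% and 6.98% of all genes. The transporter Slc7a2 went from 1663 to 33699 counts (4.09) and Azin2 from 56 to 256 (1.94). The polyamine oxidase Smox was lower, with 1514 and 722 counts. Odc1, which makes putrescine from ornithine, was not called (-0.23), nor was Nos2, the inducible nitric oxide synthase (0.02), and 18 of the 23 genes were within the thresholds. The IFN-γ and LPS library M1_ctrl also carried Slc7a2, at 7821 CPM against 923 CPM in M2_ctrl.

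Metabolic programs differed less than the markers did, and their counts stand beside 3.8% higher and 6.98% lower of all genes. Of 25 PPARγ and lipid oxidation genes, Cd36 (2.39) and the nuclear receptor Pparg itself (559 and 1885 counts) were higher and Angptl4 was lower (-1.07), with a median of 0.34, and 20 of the 25 intervals were above 0, against 29.7% of all genes. None of the 24 cholesterol synthesis genes was called in either direction (median 0.01), and by the same rule 10.8% of all genes were called. Of 19 LXR and fatty acid genes, the cholesterol exporter Abca1 (513 and 172 counts, -1.83) and the desaturase Fads2 (-1.45) were lower. Of 26 glycolysis and hypoxia genes, the lactate transporter Slc16a3 (-1.45), Egln3 (-2.34) and Vegfa (134 and 31 counts, -2.36) were lower, and 18 intervals lay below 0 (28.8% of all genes), with a median of -0.28. In the tricarboxylic acid cycle, Acod1, which makes itaconate, was lower with 1085 and 150 counts (-3.10), as was Pcx (-1.19), and the other 20 genes were not called.

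Many inflammatory genes were lower in M2_ctrl. Of 23 M1 markers, 11 were lower and 1 was higher, against 6.98% and 3.8% of all genes, with a median of -0.84 (-0.25 with no count minimum). Tnf had 2029 counts in M0_ctrl and 473 in M2_ctrl (-2.35), the inflammasome sensor Nlrp3 2342 and 649 (-2.10), the high-affinity IgG receptor Fcgr1 3072 and 710 (-2.36) and the costimulatory ligand Cd86 95 and 35 (-1.69). Cd40 was the marker that was higher, with 61 and 260 counts (1.84). Il1b (-0.20), Nos2 and Irf5 (0.25) were not called, and Il6 had only 5 and 12 counts. For scale, M1_ctrl held 37404 counts of Il6.

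Of 24 Toll-like receptor and adaptor genes, 5 were lower and 1 was higher, against 6.98% and 3.8% of all genes, with a median of -0.08. Cd14, the LPS co-receptor, had the largest loss of level among the genes called lower, from 1030 to 271 CPM (-1.93). Tlr2 had 3259 and 554 counts (-2.81), Tlr9 68 and 14 (-2.53) and Tlr5 38 and 3 (-3.91, interval -6.25 to -2.26). Tlr4 (0.74) and Tlr7 (-0.12) were not called, and Tlr8 was higher (1.04, but 0.95 and not called with total counts as the scale). Of 20 Fc and complement genes, 4 were lower and 3 were higher (median -0.23). Complement receptor C5ar1 had 4666 and 1550 counts (-1.84), whereas the inhibitory Fcγ receptor Fcgr2b was higher with 1362 and 6770 (2.06).

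CC chemokine genes were often higher and CXC chemokine genes often lower. Of 13 CC chemokine genes, 7 were higher and 0 were lower, against 3.8% and 6.98% of all genes. The median was 1.19, but 0.52 at 50 counts and 0.49 with 1 CPM added. The summed level of the CC chemokine list was 1717 CPM in M0_ctrl, 3363 CPM in M2_ctrl and 11350 CPM in M1_ctrl. The monocyte attractants Ccl2 (11274 and 30618 counts, 1.19), Ccl7 (3304 and 30289, 2.95) and Ccl12 (93 and 1087, 3.30), and Ccl8 (5 and 267, 5.49, interval 4.25 to 7.12) were among them, as was the CCR4 ligand Ccl22 (9 and 172, 4.01). Ccl3 (-0.94) and Ccl4 (-0.62) were not called. Of 10 CXC and other chemokines, 5 were lower and 1 was higher. Cxcl10, a ligand of CXCR3, had 467 and 48 counts (-3.53), Cxcl2, a neutrophil attractant, 383 and 70 (-2.70), and Cxcl11, which has a gene on the other strand, 15 and 0 (at least 5.94-fold lower). The fractalkine receptor Cx3cr1 (chr9:119901616-120069879, minus strand) fell from 4099 to 271 counts (-4.17, interval -4.35 to -3.99) and Cxcr3 from 102 to 31, while the eotaxin receptor Ccr3 rose from 58 to 261.

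Interferon-stimulated genes and cell cycle genes held the most genes called lower of all the lists. All 50 interferon-stimulated genes with at least 10 counts had an interval below 0, against 28.8% of all genes, and 35 were called lower and 0 higher, where 6.98% and 3.8% of all genes were, with a median of -1.45. Ifit3 had 1404 counts in M0_ctrl and 190 in M2_ctrl (-3.13), Ifit1 1413 and 305 (-2.46), Isg15 1245 and 272 (-2.44), Mx2 394 and 81 (-2.53), and the transcription factor Irf7 6147 and 2510 (-1.54). Stat2 (-0.84) was below 0 without being called. Ifit3 and Ifit3b share about 30% of their words with each other (31.7% and 27.4%), so their separate values are uncertain. The summed level of the list was 5006 CPM in M0_ctrl and 2409 CPM in M2_ctrl, and it was 2212 CPM in M0_rego and 22579 CPM in M1_ctrl.

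Promoters of 3 of these genes, chosen after their values were seen, are shown because they carry the core of the interferon-stimulated response element (GAAA, any 2 bases, then GAAA), searched on either strand and found here on the strand opposite to the printed one. The windows are chr19:34583279-34583528 for Ifit3, chr19:34640639-34640888 for Ifit1 and chr3:142559794-142560043 for Gbp3, 250 bases before the RefSeq start on GRCm38.p6, plus strand, with matches in capitals.
Ifit3: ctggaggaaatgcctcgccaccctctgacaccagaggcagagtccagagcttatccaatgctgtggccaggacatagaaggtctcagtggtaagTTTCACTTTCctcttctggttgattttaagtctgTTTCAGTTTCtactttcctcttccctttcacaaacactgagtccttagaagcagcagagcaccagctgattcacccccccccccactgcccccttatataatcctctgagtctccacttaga
Ifit1: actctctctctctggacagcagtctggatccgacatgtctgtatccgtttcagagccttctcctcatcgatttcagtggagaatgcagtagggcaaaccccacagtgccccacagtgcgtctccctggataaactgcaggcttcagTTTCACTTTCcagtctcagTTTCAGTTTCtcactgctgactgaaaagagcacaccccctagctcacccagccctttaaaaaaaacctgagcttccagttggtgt
Gbp3: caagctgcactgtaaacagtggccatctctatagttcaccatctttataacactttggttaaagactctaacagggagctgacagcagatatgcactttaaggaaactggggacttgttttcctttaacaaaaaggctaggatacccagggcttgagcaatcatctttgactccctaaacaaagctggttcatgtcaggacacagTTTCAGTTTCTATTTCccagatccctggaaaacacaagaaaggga
Each window held 2 matches, which overlap in Gbp3. RefSeq gives Gbp3 2 such windows, and 1 of them held the core. The core was found in 3.36% of all 9857 promoters, 9.87% of those of genes called lower, 23 of the 128 at least 4-fold lower, and 17 of the 28 called interferon-stimulated genes with a promoter (60.7%). A match is again a description of letters.

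Of 46 cell cycle genes, 32 were called lower and 0 higher, where 6.98% and 3.8% of all genes were, with a median of -1.17. The proliferation gene Mki67 had 18430 counts in M0_ctrl and 7534 in M2_ctrl (-1.54), the topoisomerase Top2a 14792 and 6201 and the ribonucleotide reductase subunit Rrm2 9616 and 3937 (-1.54). The replication helicase genes Mcm2, Mcm3, Mcm5, Mcm6 and Mcm7 were lower with log2 ratios from -1.31 to -1.02, Mcm2 not with upper quartile scaling (-0.97). The D-type cyclin genes Ccnd1 (0.56), Ccnd2 (-0.29) and Ccnd3 (-0.80) and the inhibitors Cdkn1a (0.45) and Cdkn1b (-0.66) were not called. The summed level of the list was 9006 CPM in M0_ctrl and 5921 CPM in M2_ctrl, against 2319 CPM in M0_rego and 3590 CPM in M2_rego.

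Of the 25 lowest ratios, several belonged to neither group. Itga8, the integrin α8 chain, had 711 counts in M0_ctrl and 33 in M2_ctrl and was 25.6-fold lower (-4.68, interval -5.23 to -4.18). Gpr84, a receptor for medium-chain fatty acids, had 345 and 27 counts (-3.92), with 39.5% of its exonic bases overlapped by a gene on the other strand. Marcksl1 had 3037 and 401 counts (-3.17), the sialic acid receptor gene Siglec1 2916 and 549 (-2.66), Hcar2, the niacin receptor gene, 120 and 23 (-2.63), and P2ry13, an ADP receptor gene, 160 and 32 (-2.57). Sorl1, a sorting receptor gene, had 360 and 72 counts (-2.57).

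**Figure D3:**
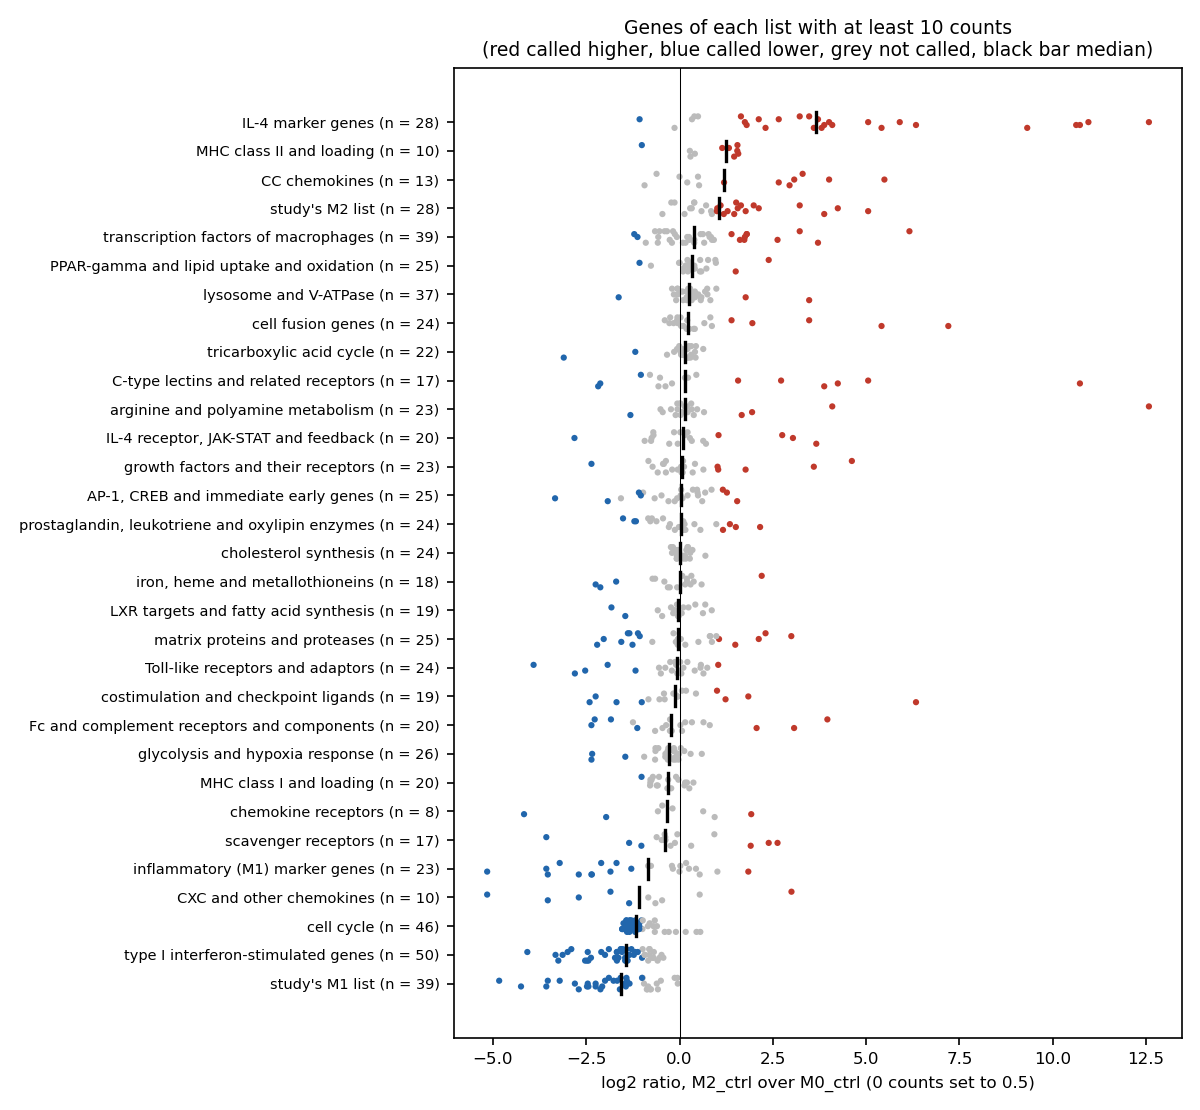
Each point is a gene with at least 10 counts in M0_ctrl or M2_ctrl, placed by its log2 ratio (horizontal axis), with 1 row per gene list sorted by median (black bar). Red points were called higher, blue points lower and grey points neither. IL-4 markers stand highest (median 3.65), cell cycle and interferon-stimulated genes and the study's M1 list lowest (-1.17, -1.45 and -1.58).

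Genes of MHC class II presentation were mostly higher, and those of class I were mostly not called. Of 10 MHC class II and loading genes, 6 were higher and 1 was lower, beside 3.8% and 6.98% of all genes (median 1.23). The invariant chain Cd74 had 1745 and 6171 counts (1.57), H2-Aa 436 and 1296 (1.32), H2-Eb1 191 and 663 (1.55) and their master regulator Ciita 47 and 154 (1.46). H2-DMb2, a chain of the peptide loading factor, was lower with 95 and 56 counts (-1.01, and -0.96 with upper quartile scaling, where it was not called). Of 20 class I genes, only the peptide transporter Tap1 was called (1775 and 1041 counts, -1.02, and -0.97 with upper quartile scaling, where it was not called), and 15 of the 20 intervals lay below 0, against 28.8% of all genes. Of 19 costimulatory and checkpoint genes, 4 were higher and 4 were lower (median -0.14). Among them, Pdcd1lg2, which encodes PD-L2, had 0 and 48 counts and was at least 13.5-fold higher, Cd274, which encodes PD-L1, had 768 and 1830 counts, at the 2-fold threshold and not called with total counts or the median of ratios as the scale, and Icosl was lower with 998 and 223 (-2.41).

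Genes of macrophage fusion included some of the largest ratios. Ocstamp had 1 count in M0_ctrl and 175 in M2_ctrl (7.20, interval 4.71 to 12.51), its partner Dcstamp 74 and 340 (1.95), and the adhesion gene Cdh1, which encodes E-cadherin, 21 and 1063 (5.41, interval 4.79 to 6.11). Atp6v0d2, a V-ATPase subunit of multinucleated cells, had 597 and 7878 counts (3.47). In all, 5 of the 24 genes were higher and 0 were lower, against 3.8% and 6.98% of all genes. Cd9, Cd47 and Trem2 were among the 19 fusion genes that were not called, and the median was 0.22. Of 37 lysosome and V-ATPase genes, 2 were higher, both of them V-ATPase subunits, a share near the 3.8% of all genes. Their intervals were above 0 in 28 genes, against 29.7% of all genes, which were not matched for level. The median of the list was 0.26, and 0.17 with total counts as the scale. The protease gene Ctsc was lower (4371 and 1676 counts, -1.63).

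Among matrix genes, 5 of 25 were higher and 8 were lower, where 3.8% and 6.98% of all genes were called, shares that also stand beside the counts of the next groups. Mmp13 had 345 and 3268 counts (2.99), fibronectin (Fn1) 76 and 446 (2.30) and Sparc 19 and 47 (1.06, and 0.97 with total counts as the scale, where it was not called). Lower members included Plau, the urokinase gene (8531 and 4229 counts, -1.26), Vcan (-1.34), Col4a1 (909 and 264, -2.03), Mmp14 (35 and 9, -2.21), Mmp25, Mmp8 and Tgfbi. Of 23 growth factor genes, 5 were higher, including the GM-CSF receptor chains Csf2rb (1.04) and Csf2rb2 (1.02), neither of which was called with total counts as the scale (0.95 and 0.93), while Vegfa was lower. In the prostaglandin and leukotriene group, 4 of 24 were higher, among them the PGE2 receptor gene Ptger2 (138 and 732 counts, 2.16), and 3 were lower, among them the lipoxygenase gene Alox5 (3439 and 1430, -1.52). Among 18 iron genes, the importer Tfrc was higher (2.20) and the exporter Slc40a1 lower (235 and 86 counts, -1.70), with Hp and Hpx also lower.

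Of the 17 scavenger receptor genes, Cd36, Stab2 and Olr1 were higher and Axl (not with upper quartile scaling), Cxcl16 and Marco were lower, beside 3.8% and 6.98% of all genes. Msr1 (-0.48) and Cd163 (-0.41) were not called. The M2 list used by the study held 28 genes with enough counts, of which 16 were higher and 0 lower (median 1.05), against the same shares of all genes. Its M1 list held 39, of which 0 were higher and 26 lower (median -1.58). These lists were taken from the study, which describes its curated gene sets as drawn from the literature. They share members with the lists above, so their directions are not independent evidence.

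The same cytokine was also given to BMDMs that had received regorafenib, and M2_rego and M0_rego share no library with M2_ctrl and M0_ctrl. In 13340 genes with at least 10 counts in both pairs, 467 were called higher without the drug. Of these, 410 (87.8%) had a ratio above 0 with the drug and 260 (55.7%) were called higher there, against 3.73% of all the genes, and 3 were called lower. Of 882 genes called lower without the drug, 529 (60.0%) had a ratio below 0 with it and 207 (23.5%) were called lower, against 3.45% of all, and 22 were called higher. For comparison, 53.3% of all the genes were below 0 with the drug. Across the genes, which are not independent replicates, Pearson's r was 0.58 and Spearman's rho was 0.32. The comparison holds 1 library per condition, and the pairs also differ in the drug.

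All 23 IL-4 markers called higher without the drug were above 0 with it. Retnla had 0 counts in M0_rego and 3348 in M2_rego, and Mrc1 805 and 12895 (4.24). Itga8 and Cx3cr1, the lowest ratios among called genes that reached 100 counts, were also lower with the drug (-1.91 and -3.37).

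**Figure D4:**
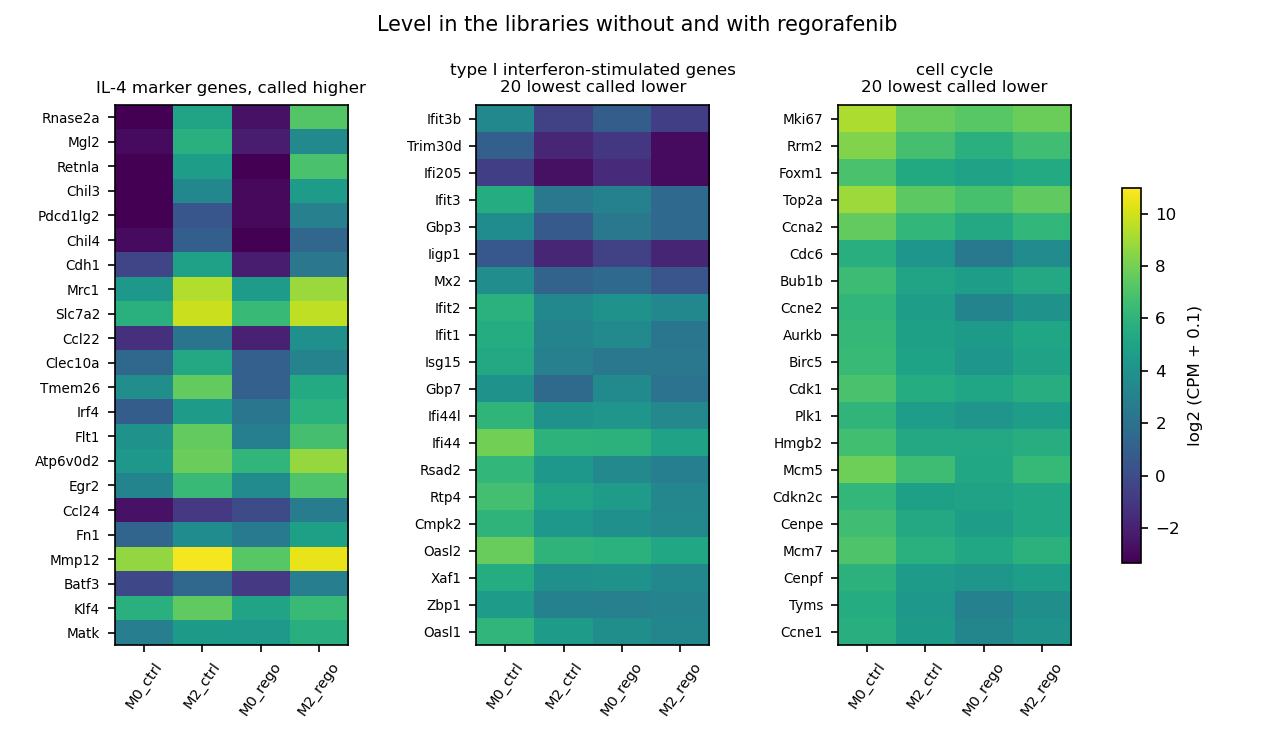
Colour gives the level, as log2 of CPM plus 0.1, of 22 IL-4 markers called higher (left) and the 20 interferon-stimulated (middle) and 20 cell cycle genes (right) with the lowest ratios among those called lower, in M0_ctrl, M2_ctrl, M0_rego and M2_rego. The markers are brighter in both IL-4 libraries, while in the middle and right panels M0_ctrl is the brightest of the 4 columns.

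Most cell cycle genes had a ratio of the opposite sign with the drug, but only 3 of the 46 were called higher there, against 3.73% of all genes, and the difference between the pairs was not tested. All 32 that were called lower without the drug had a ratio above 0 with it, and the median of the 46 genes was 0.62 in that pair. Mki67 had 5181 counts in M0_rego and 6231 in M2_rego (0.50). Of the 4 libraries, M0_ctrl had the highest level of 42 of the 46 cell cycle genes. It also had the highest level of all 50 interferon-stimulated genes, of which 34 of the 35 called lower kept a ratio below 0 with the drug, mostly of smaller size (Ifit3 -1.39, Isg15 -0.01). With the drug, 9 of the 49 interferon-stimulated genes with enough counts were called lower, against 3.45% of all genes, and their median was -0.41. The part of the single M0_ctrl library in these differences was not tested.

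**Figure D5:**
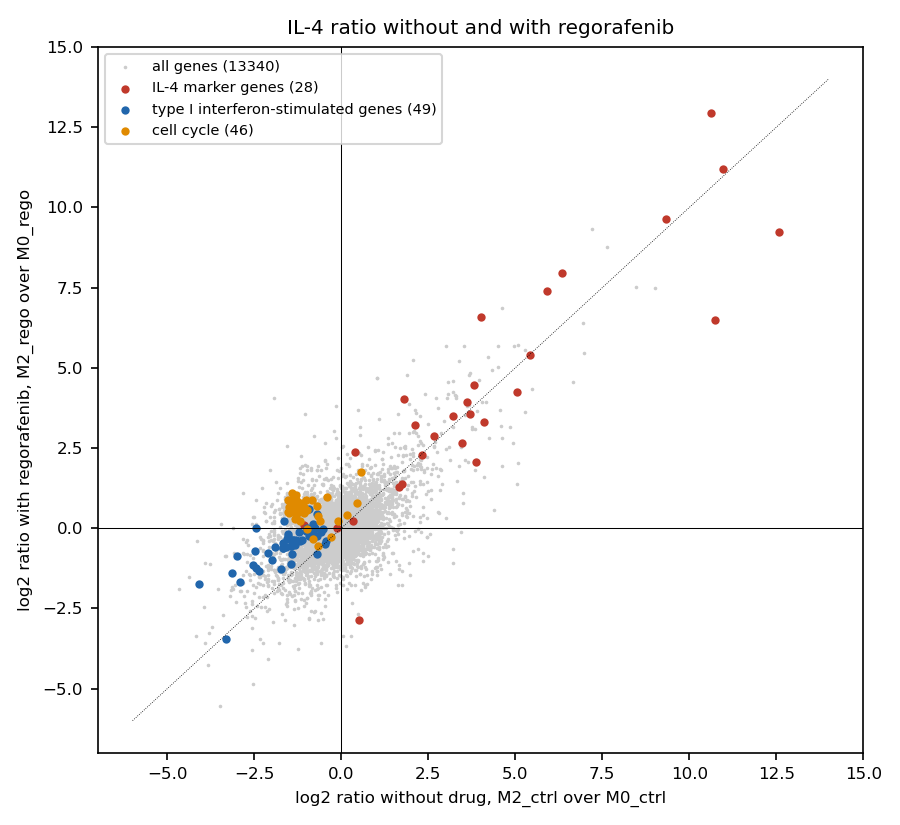
The log2 ratio of IL-4 over no polarization without drug (horizontal axis) is plotted against the same ratio with regorafenib (vertical axis) for 13340 genes, with 0 counts set to 0.5 and equality as a dotted line. Most IL-4 markers (red) lie high in both pairs, interferon-stimulated genes (blue) lie below 0 in the control pair and nearer to 0 with the drug, and cell cycle genes (orange) lie below 0 in the control pair and mostly above 0 with the drug.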

How the data were processed

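RNA of BMDMs was sequenced with a TruSeq Stranded mRNA library and paired reads of 100 bases. Per the authors' methods and processing notes, reads were trimmed with cutadapt 2.4, aligned to GRCm38 with STAR 2.7.2a and counted per gene on Gencode M19. The authors deposited raw whole-number counts, not normalized, and the strand setting is not given in the sources used here. Gene names came from Gencode M21 (53229 gene IDs matched with version, 1180 without, 37 had no name). A symbol with several IDs took the ID with most counts.

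Counts were scaled with TMM over the 6 libraries (edgeR 4.0.16, R 4.3.3). Ratios and 95% conditional exact binomial (Clopper-Pearson) intervals were computed in Python 3.11.15 with scipy 1.17.1, with 0 counts set to 0.5 in ratios and to a floor of 3 counts in bounds. Calls and intervals were tested on simulated counts that varied by counting error only, so variation between cultures was not tested. Genes needed 10 counts in 1 library. Named genes were the 25 highest and 25 lowest ratios of called genes that reached 100 counts, the 10 largest gains and losses in CPM among called genes, and members of the 38 gene lists (2 from the study, 7 of cell type markers). Sequence shared between genes was measured in words of 100 bases. The members and lists were chosen with earlier results of these data known. Alternatives were other scalings, filters, an added CPM and stricter calls. Results for some genes are not reported here.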

Additional observations from a re-analysis of the deposited data

Results flagged for a closer look

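The log2 ratios or list medians below had opposite signs in the pairs without and with regorafenib. Each pair has 1 library per condition, and the difference between the pairs was not tested. The median log2 ratio of the 46 cell cycle genes was -1.17 in M2_ctrl over M0_ctrl and 0.62 in M2_rego over M0_rego, where 3 of the 46 were called higher. Among named genes called in both pairs, Cdc6, a replication licensing factor, was at -1.42 without the drug and 1.11 with it, and the replication helicase gene Mcm5 was at -1.31 and 1.04. Fosl1, an AP-1 subunit gene, was at -1.09 and 1.68, with only 7 and 19 counts in M0_rego and M2_rego, and 57.2% of its exonic bases are overlapped by a gene on the other strand, with the strand setting of the counting not given in the sources used here. The 3 dendritic cell markers with at least 10 counts had a median of -0.072 without the drug, which is near 0 and gives no direction, and of 3.80 with it. The first was 0.75 with no count minimum and 0.86 at 50 counts. With the minimum of 10 counts, the middle value belonged to Irf8 without the drug. With the drug it belonged to Zbtb46, a transcription factor of dendritic cells, with 5 and 59 counts in M0_rego and M2_rego and 14 and 15 in M0_ctrl and M2_ctrl. Groups here hold 1 library, so no library could be compared with others of its group.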

How the results depend on the processing

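With 1 library per condition, no replicate could be left out. No paired analysis was possible because M0_ctrl and M2_ctrl, the only libraries of this comparison, had 1 library each. A fit of state over the libraries without and with regorafenib, with the drug as a block, was not run. Other scalings moved the median of all genes by at most 0.090 (log2, total counts, downward), gave 447 to 569 higher and 871 to 1106 lower genes, and turned no call to the other direction. Of the genes called, 35.3% were higher with TMM, 28.8% with total counts and 39.5% with the upper quartile. No named gene that was called changed sign under any scaling. Calls near 2-fold ended in 10 named or listed genes under total counts, among them Adgre1, Cd274, Csf2rb, Csf2rb2, Irs2, Lgals3, Sparc and Tlr8, in 3 under the median of ratios, among them Adgre1 and Cd274, and in 8 under the upper quartile, among them Axl, Clec5a, Dusp1, H2-DMb2, Mcm2 and Tap1.

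Fewer genes were called under stricter settings, which by construction drop weak or low genes. At 50 counts 347 genes were higher and 661 lower, with 1 CPM added 280 were higher and 500 lower, at 4-fold 211 and 193, and with the whole interval past 2-fold 294 and 480. The share of higher genes above 0 in the regorafenib pair was 94.98% at 50 counts and 96.8% with 1 CPM added. That of lower genes below 0 was 52.7% and 49.8%, against 60.0% with the main settings, where 53.3% of all genes were below 0.

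List medians (log2 ratios) kept the direction described above where the list had a median past 2-fold, and the cause of the other movements was not tested. With total counts they were 0.046 for arginine, 0.25 for PPARγ, -0.13 for LXR, -0.37 for glycolysis, 0.055 for tricarboxylic acid cycle, 0.13 for fusion, -0.41 for MHC class I, 0.30 for transcription factor, -1.26 for cell cycle, 0.17 for lysosome, -0.086 for iron, 0.069 for macrophage and 0.66 for T, NK and B cell genes. With the upper quartile they were 0.31 for lysosome, 0.21 for macrophage and 0.79 for T, NK and B cell genes. With 1 CPM added they were 2.61 for IL-4 markers, -1.31 for interferon-stimulated genes, 0.49 for CC chemokines, -0.28 for scavenger receptors, 0.999 for MHC class II, -1.24 for the study's M1 list and 1.28 for eosinophil, basophil and mast cell markers. With no minimum they were -0.25 for M1 markers, 0.22 for chemokine receptors, 0.78 for MHC class II, -0.093 for Fc and complement genes, -0.16 for iron, 0.75 for dendritic cell, -1.10 for neutrophil and -0.54 for T, NK and B cell markers. At 50 counts they were 0.52 for CC chemokines, -1.60 for CXC chemokines, 0.11 for iron genes and 0.86 for dendritic cell markers.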

Other observations

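Across all genes, 25 were called in opposite directions in the pair without and the pair with regorafenib, 22 of them lower without the drug and higher with it and 3 the reverse. The 3, named after their values were seen, were the lipoprotein receptor gene Vldlr (log2 ratios of 1.01 and -1.46), the integrin gene Itga9 (1.02 and -1.04) and the transcript A630035G10Rik.

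Precision depended on depth. The median width of the counting interval on either side of the log2 ratio was 1.28 for the 1736 genes with 10 to 29 counts in the higher library and 0.03 for the 574 genes with at least 10000. Of the genes called, 122 higher and 217 lower genes were in the first of these groups.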
